A study of Mus musculus with 24 samples.

Results

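The comparison described here set mouse Neuro2A cells that carried the RNA-targeting effector DiCas7-11 with a crRNA against Atxn2 (mATXN2) beside cells that carried DiCas7-11 with a non-targeted crRNA (NTG). It used 6 of the 24 RNA-seq samples of the series, 3 per arm, chosen by their labelled treatment. Neuro2A is an established mouse neuroblastoma line, and all samples were labelled wild-type. Both arms were transiently transfected with a plasmid that drives DiCas7-11 from the CAG promoter and the crRNA from the U6 promoter, and RNA was collected 48 hr later from the whole culture without sorting for transfected cells. The other 18 samples held the same pair of crRNA arms for RfxCas13d and for HiFi-RfxCas13d, untransfected cells, and cells given an ataxin-2-targeting antisense oligonucleotide (ASO), 3 samples each. The labels and the study's description of the comparison call the control arm NTG, whereas the column names of the count table carry the abbreviation EV, and the arm is called NTG here as labelled. The columns of the mATXN2 arm also carry another crRNA number than their labels do.

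DiCas7-11 is a type III-E CRISPR effector from the bacterium Desulfonema ishimotonii, in which several Cas7-like domains and a Cas11-like domain are fused into 1 protein. Guided by its crRNA, it cuts a matching RNA at defined positions, and it is known for sparing bystander RNAs, whereas RfxCas13d, once it has bound its target, can also cut RNAs nearby and HiFi-RfxCas13d is a variant engineered to do so less. Ataxin-2, the product of Atxn2, is an RNA-binding protein that associates with poly(A)-binding protein and takes part in stress granule assembly. The human protein carries a polyglutamine tract that is expanded in a form of spinocerebellar ataxia, which the mouse protein lacks.

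Levels are read counts scaled to library size (CPM) with edgeR's TMM factors, given for replicates 1, 2 and 3 in that order, and fold changes are log2 of mATXN2 over NTG with their standard error (SE). Adjusted p-values come from edgeR's quasi-likelihood test with Benjamini-Hochberg adjustment over the 13901 genes tested, with 0.05 as the threshold. The 6 libraries held between 13607843 and 19820230 assigned reads, within the range of 12665725 to 22504999 over all 24. The NTG arm stood apart in its spread: between pairs of its replicates the chi-square of the counts per degree of freedom was 3.33 to 5.58, against 1.68 to 2.55 in the other 7 groups. For this reason counts of calls are also given without single libraries where this changed them. Of the neuronal and neuroblastoma markers 22 of 26 passed the filter on low counts, and their summed level was 4123 to 4321 CPM in NTG, 4039 to 4145 in mATXN2 and 4373 to 4438 in untransfected cells, although Nefl and Nefm, which encode neurofilament subunits, were below the filter. Glial markers summed to at most 38.2 CPM, immune and endothelial markers to at most 9.28 CPM, and fibroblast and epithelial markers to at most 7.34 CPM in every library of the 2 arms. Gfap, Ptprc, Epcam and Cdh1 were below the filter.

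Atxn2, the targeted gene, was lower in all 3 mATXN2 samples. Its level was 115, 121 and 119 CPM in NTG and 101, 106 and 102 CPM in mATXN2, so the arms did not overlap and every mATXN2 sample lay below every NTG sample. The means were 118 ± 2.70 and 103 ± 2.43 CPM (SD, n = 3), and untransfected cells held 123 ± 1.78 CPM. Atxn2 fell by 13%, with a 95% interval from -17.4% to -8.24%, which is a log2 fold change of -0.20 (SE 0.0372, adjusted p = 0.00557). In bulk RNA, a change in a share of the cells and a smaller change in each cell cannot be told apart. The two-sided exact permutation test on the CPM gave p = 0.1, the smallest that 3 against 3 samples allow. Atxn2 was the gene with the 23rd smallest p-value of all, the 3rd among genes that were lower, and its fall was the 10th largest in size among the 54 called falls. It was called in 4 of the 6 fits that left out 1 DiCas7-11 library, and lost the call without NTG 2 (log2 fold change -0.19, adjusted p = 0.0754) and without mATXN2 replicate 1 (-0.19). A fit of the 6 samples alone gave -0.20 and an adjusted p of 0.0804.

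In all, 131 of the 13901 genes (0.942%) passed the threshold, of which 77 rose (0.554% of those tested) and 54 fell (0.388%), and 1951 genes had an unadjusted p below 0.05. The rises were mostly genes with long coding sequences, among them chromatin regulators, ubiquitin ligases, cytoskeletal linkers and the matrix proteins perlecan and fibronectin, and most were small in size: their median log2 fold change was 0.24, from 0.10 to 1.25. The falls had a median of -0.14, from -0.54 to -0.09, and the median over all genes was -0.001. A single rise, Gm6710, exceeded 1 on the log2 scale. Rises over 0.5 were Gm6710, Ltk, Lncppara, Gm46178 and Hspg2, and the only fall of that size was Idi1-ps1. The arms did not overlap for 73 of the rises and 52 of the falls, but this held for 2011 genes (14.5%) over the whole table, 1008 of them higher in mATXN2 (7.25%) and 1003 lower (7.22%).

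**Figure D1:**
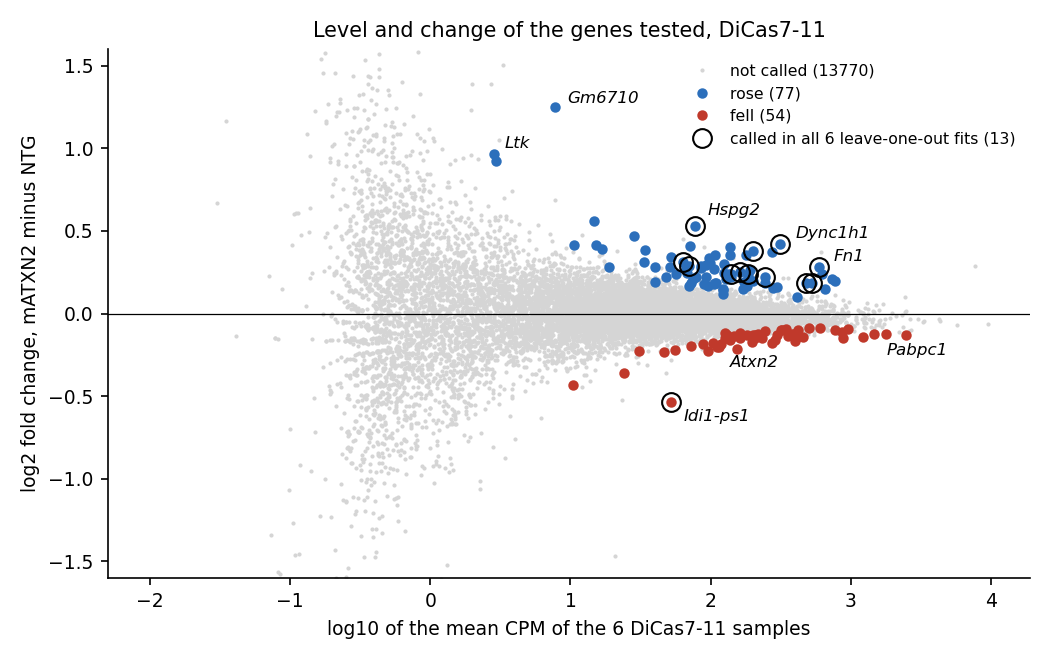
Fold change of each gene, log2 of mATXN2 over NTG with DiCas7-11, against the log10 of its mean CPM over the 6 samples. Grey points are genes that were not called and coloured points the 77 that rose and 54 that fell, with rings around the 13 called in every fit that left out a library. Called genes lie close to the zero line, with falls of at most 0.54 and a single rise over 1, and 51 uncalled genes lie beyond the plotted range of 1.6 in either direction.

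The number of calls depended on which library was present. Without NTG 1, 621 genes were called (216 rose and 405 fell), and without NTG 2 only 15 (13 rose and 2 fell). Without NTG 3 the count was 190, and it was 31, 78 and 70 without mATXN2 replicates 1, 2 and 3. Of the 131 genes, 122 were still called without NTG 1, 15 without NTG 2, 105 without NTG 3, and 29, 71 and 66 without the mATXN2 replicates in turn. NTG 2 was therefore the library on which most calls rested, and mATXN2 replicate 1 came next. Among the rises, NTG 3 was the control sample nearest to the mATXN2 mean for 56 genes, NTG 1 for 19 and NTG 2 for 2, while among the falls NTG 1 was the nearest for 40, NTG 3 for 10 and NTG 2 for 4. The mATXN2 sample farthest from the NTG mean was replicate 1 for 51 of the 77 rises and 27 of the 54 falls.

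**Figure D2:**
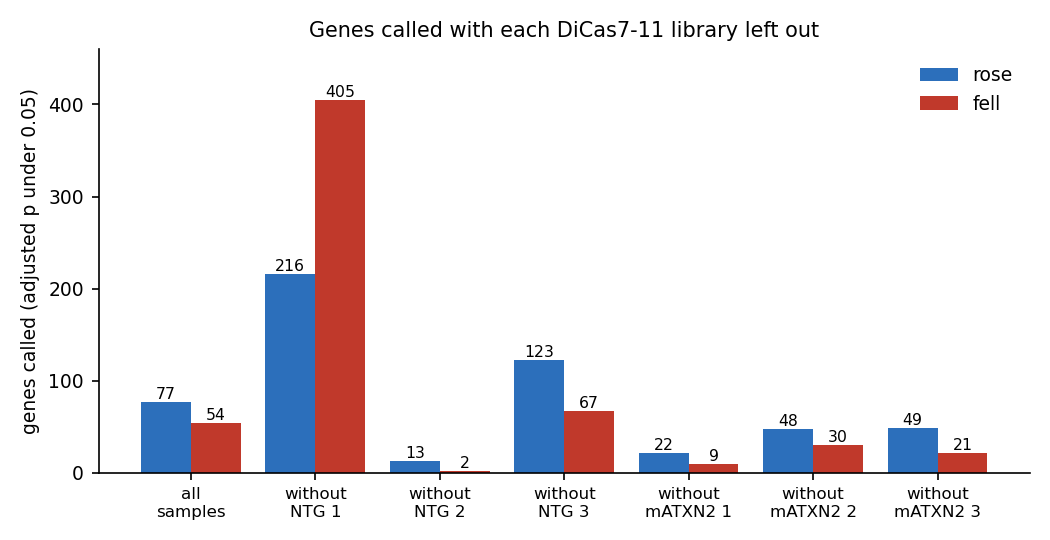
Number of genes called with all 24 samples and with each DiCas7-11 library left out, with a bar for genes that rose and a bar for genes that fell. Without NTG 1 the bars stand at 216 and 405 and without NTG 2 at 13 and 2, against 77 and 54 with all samples.

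A set of 13 genes (0.0935% of those tested) was called with all samples and in each of the 6 fits that left out a library. Of these, 12 rose, among them Hspg2, Dync1h1, Fn1, Trrap, Prr12, Kmt2b, Map1a, Srcap, Hcfc1, Prrc2a and Prpf8. The exception was Idi1-ps1, which fell. For each of them the fit without NTG 2 gave the largest adjusted p, from 0.0301 to 0.0471. All of these fits estimated a gene's spread from the 8 groups together, and the spread of the NTG arm was wider. With the 6 samples fitted alone only Idi1-ps1 was called (adjusted p = 0.00839). The 12 rises then had adjusted p from 0.0589 to 0.115. Hspg2 encodes perlecan, the large heparan sulfate proteoglycan of basement membranes. It stood at 63.2, 52.6 and 74.4 CPM in NTG and at 97.2, 89.3 and 87.5 CPM in mATXN2, a log2 fold change of 0.53 (SE 0.0799, adjusted p = 0.00128). Its controls spread widely, yet even the highest of them lay below every mATXN2 sample. Dync1h1, the heavy chain of cytoplasmic dynein, the motor for minus-end transport along microtubules, was 245, 247 and 315 CPM in NTG and 374, 352 and 355 CPM in mATXN2 (0.42, SE 0.061, adjusted p = 0.00128). Fn1, fibronectin, a matrix ligand of integrins, was 528, 494 and 583 CPM against 665, 646 and 637 CPM (0.28, SE 0.0415, adjusted p = 0.00128). In both genes NTG 3 was the control closest to the mATXN2 samples.

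Several of the 12 rises encode regulators of chromatin and transcription. Trrap is the scaffold subunit of histone acetyltransferase complexes. Its level was 163, 157 and 200 CPM in NTG and 237, 219 and 219 CPM in mATXN2 (0.38, SE 0.0604, adjusted p = 0.00155). Kmt2b, a methyltransferase of histone H3 lysine 4, was 60.8, 62.0 and 67.3 CPM in NTG and 79.8, 75.7 and 76.7 CPM in mATXN2 (0.29, SE 0.0476, adjusted p = 0.00206). Its controls lay within a narrower band than those of Trrap. Srcap, the motor of a complex that deposits the histone variant H2A.Z, was 123, 123 and 137 CPM against 153, 148 and 152 CPM (0.24, SE 0.0386). Hcfc1, a cofactor shared by several chromatin complexes, was 216, 216 and 246 CPM against 262, 264 and 267 CPM (0.22, SE 0.035). All of these were separated between the arms, with NTG 3 again the highest control.

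The remaining rises of this kind were of other functions. Prpf8, the core protein of the spliceosome's catalytic centre, was 468, 491 and 529 CPM in NTG and 565, 571 and 557 CPM in mATXN2 (0.19, SE 0.032, adjusted p = 0.00286). Map1a, a microtubule-associated protein of neurons, was 138, 145 and 162 CPM against 177, 175 and 178 CPM (0.25, SE 0.0442). Prrc2a, which encodes a large proline-rich RNA-binding protein, was 442, 423 and 473 CPM against 494, 509 and 519 CPM (0.19, SE 0.0286). These shifts were 13.7% to 19.2% in size, with the arms separated in each. Prr12, a proline-rich nuclear protein, was 53.1, 54.4 and 62.3 CPM against 71.9, 68.3 and 70.8 CPM (0.31, SE 0.0516).

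**Figure D3:**
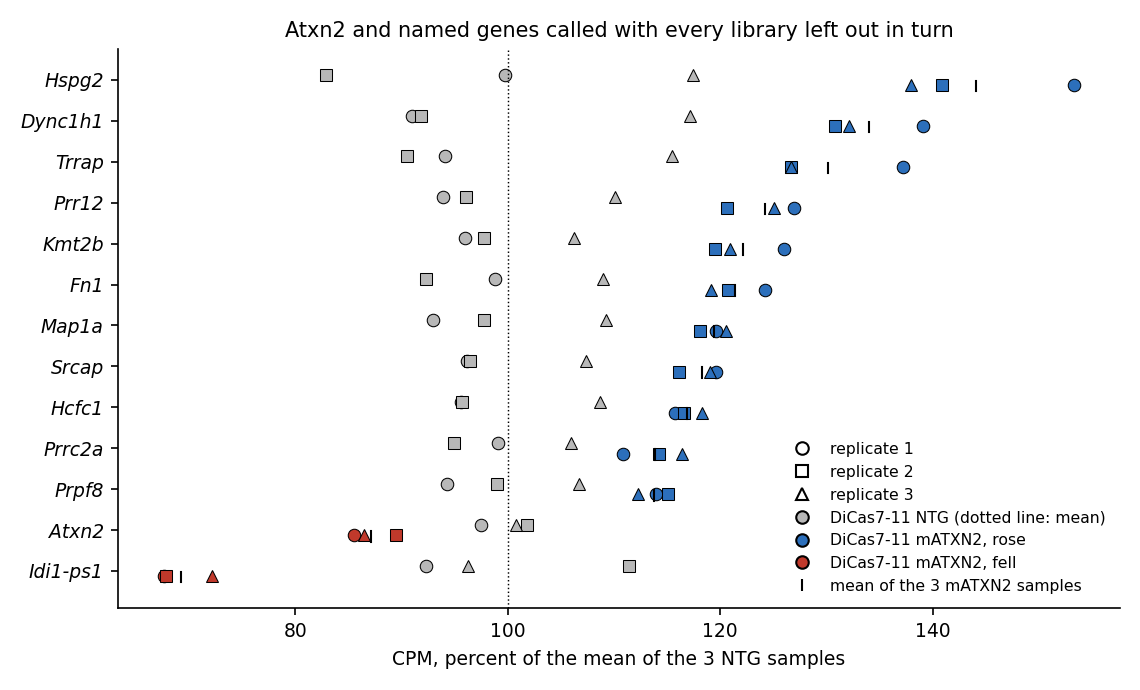
Level of the genes named in the text that were called in every fit leaving out 1 DiCas7-11 library, with Atxn2 for comparison, as the CPM of each sample in percent of the mean of the 3 NTG samples. Points are single samples with a shape for each replicate, ticks mark the mATXN2 mean and the dotted line the NTG mean, and all mATXN2 points of a gene lie on the same side of all its NTG points.

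Idi1-ps1, a pseudogene copy of Idi1, fell by 0.54 on the log2 scale (SE 0.0824, adjusted p = 0.00128), the largest of the called falls. It was 56.9, 68.7 and 59.3 CPM in NTG and 41.7, 41.8 and 44.5 CPM in mATXN2, and untransfected cells held 43.2 ± 2.22 CPM, close to the mATXN2 arm. Idi1 encodes isopentenyl-diphosphate isomerase of isoprenoid synthesis, and because the counting assigns reads between near-identical copies by estimation, the split between gene and pseudogene is uncertain. Idi1 itself was 80.7, 78.5 and 84.7 CPM in NTG and 93.5, 98.9 and 91.2 CPM in mATXN2, in the other direction, with a log2 fold change of 0.22 that did not pass (adjusted p = 0.0991). Added together, the pair gave 143 ± 4.90 CPM in NTG and 137 ± 3.04 CPM in mATXN2 (two-sided exact permutation p = 0.2 on 3 against 3). The pseudogene took 41.2% to 46.7% of this sum in NTG, 29.7% to 32.8% in mATXN2 and 31.2% to 32.9% in untransfected cells. The sum differed between the arms by less than the pseudogene alone did. The sum was looked at after the values of both genes had been seen.

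Beyond these genes none of the largest rises kept its call in every fit that left out a library. Gm6710, a predicted gene, had the largest fold change of the called genes at 1.25 (SE 0.264, adjusted p = 0.0151), but its NTG samples ran from 1.53 through 4.70 to 7.28 CPM, while the mATXN2 samples were 11.2, 10.8 and 10.9 CPM. It kept its call in 4 of the 6 fits, and without NTG 2 the adjusted p was 0.109. Gm46178 was 12.7, 9.64 and 13.7 CPM against 21, 15.9 and 15.9 CPM (0.56, SE 0.141, adjusted p = 0.0473) and kept its call in 2. Lrp1, an endocytic receptor of the LDL receptor family, was 24, 20.7 and 26.4 CPM against 35.6, 32 and 30.4 CPM (0.47, SE 0.0841, adjusted p = 0.00349), with the call kept in 4 fits. Its untransfected level of 34 ± 3.30 CPM was that of the mATXN2 arm and not that of the control plasmid. Rhob, a small GTPase of endosomes, rose by 0.42, as did the zinc finger gene Zfp444 by 0.41, the nuclear envelope linker Syne2 by 0.41, the H3-K4 methyltransferase Kmt2d by 0.40 and Zfp672 by 0.39. Each of these 5 lost its call without NTG 2. Ltk, a receptor tyrosine kinase, and Lncppara lay outside the naming rule because their mean was below 50 counts and were picked after their values were seen. Ltk was 1.90, 1.73 and 2.18 CPM against 3.71, 3.77 and 3.87 CPM (0.97, SE 0.187, adjusted p = 0.00789), and Lncppara 2.19, 1.90 and 2.05 CPM against 4.66, 3.26 and 3.63 CPM (0.92, SE 0.181, adjusted p = 0.00867).

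Falls were small, and 2 of the 54 were called without NTG 2, against 13 of the 77 rises. After Idi1-ps1 the largest was Sparcl1, which encodes hevin, a secreted matrix-associated protein. It was 13, 12.1 and 10.9 CPM in NTG and 8.63, 8.43 and 9.56 CPM in mATXN2 (-0.43, SE 0.097, adjusted p = 0.0217), and untransfected cells were higher still at 14.9 ± 1.05 CPM. Gm15127 was 25, 27.9 and 27.7 CPM against 21.3, 21.3 and 20.3 CPM (-0.36, SE 0.0738, adjusted p = 0.0121). The mATXN2 samples of this predicted gene were nearly level. Further down, Hypk, a chaperone-like partner of N-terminal acetyltransferase, and the centriole protein gene Cep83 fell by 0.23 each. Mcam, a cell adhesion molecule, and Ap4e1, a subunit of an adaptor complex of the Golgi, fell by 0.22, the mitotic kinesin Kif20b and the ubiquitin ligase Dzip3 by 0.21, and Sh3bgrl and the ciliary kinase Nek1 by 0.18. Mcam had nearly identical controls at 33.3, 33.3 and 33 CPM against 29.5, 28.5 and 27.2 CPM. Kif20b showed the opposite picture, with 146, 180 and 173 CPM in NTG against 143, 146 and 143 CPM, so that NTG 1 nearly met the mATXN2 samples. The pair called without NTG 2 was Idi1-ps1 and Asns, asparagine synthetase, a target of the integrated stress response. Asns was 627, 617 and 618 CPM against 592, 583 and 578 CPM (-0.09, SE 0.0178, adjusted p = 0.0119), the smallest of the called falls in size but with close replicates, and it kept its call in 5 of the 6 fits, all but the one without mATXN2 replicate 3 (adjusted p = 0.0759).

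Called genes differed from the rest of the table in coding length and base composition. Coding lengths and GC contents of the transcripts came from the GENCODE M21 annotation of mouse and were matched for 87.2% and 88.4% of the genes tested. The rises had a median coding length of 7516.5 bases (74 with a value), the falls 1609.5 bases (52 with a value) and all genes 1416 bases. Of the 334 genes over 6000 coding bases 13.8% rose, against 0.237% of the 11792 shorter genes, and no gene over 6000 bases fell. In the class of 9000 bases and longer, 28 of 95 genes rose (29.5%) and the median log2 fold change was 0.15. All 12 rises that were called in every fit lay over 6000 bases. Median GC was 54.7% in the rises, 42.3% in the falls and 50.7% over all genes, and of the 536 genes below 40% GC none rose and 14 fell (2.61%).

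The same classes differed between control libraries. Relative to the mean of all 24 samples, genes of 9000 coding bases and longer had a median log2 level of -0.16, -0.17 and 0.06 in NTG 1, 2 and 3 and of 0.13, 0.05 and 0.04 in mATXN2. NTG 3 thus stood with the mATXN2 samples in this class, and NTG 1 and 2 stood below. Genes below 40% GC were at -0.02, 0.09 and 0.05 in NTG 1, 2 and 3 and at -0.04, -0.03 and -0.04 in mATXN2, so that here NTG 1 was the control nearest to mATXN2. When coding length was taken out of each library as a trend, 46 of the rises and 52 of the falls were still called among the genes with a length, and with GC and length both taken out 25 rises and 18 falls were. Over all genes with a length, the calls were then 52 rises and 97 falls with length taken out and 28 and 32 with both, beside 74 and 52 of these genes without a correction. All 74 rises and 52 falls with a value kept their direction in both. After the correction for both, Hspg2 stood at 0.33 (adjusted p = 0.00292), Dync1h1 at 0.25 (adjusted p = 0.00031), Fn1 at 0.18 (adjusted p = 0.000763), Trrap at 0.23 (adjusted p = 0.00134) and Atxn2 at -0.24 (adjusted p = 0.000899), whereas Kmt2b at 0.15 (adjusted p = 0.141), Srcap at 0.11, Map1a at 0.13 and Prrc2a at 0.07 no longer passed. The part of length and composition in the uncorrected calls was not tested beyond these corrections.

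**Figure D4:**
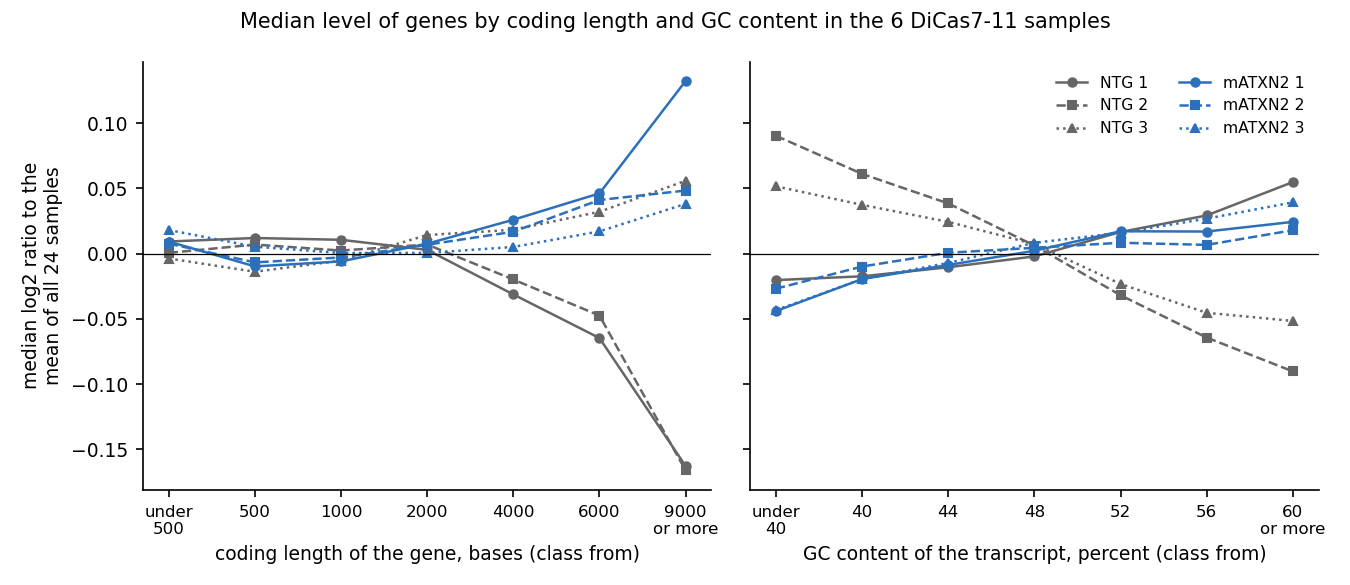
Median log2 level of genes grouped by coding length (bases) and by GC content (percent), for each of the 6 DiCas7-11 libraries, as log2 ratio to the mean of all 24 samples. In the class of 9000 bases and longer NTG 1 and 2 lie at -0.16 and -0.17 and the other 4 libraries between 0.04 and 0.13, and below 40% GC NTG 2 and 3 lie at 0.09 and 0.05 and the other 4 between -0.04 and -0.02.

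Gene lists were examined by role, each beside the background of 0.942% called and a median of -0.001 over all genes in the fit of all samples. Counts with a library left out have a different background. Of all 13901 genes, 216 rose and 405 fell without NTG 1, 13 and 2 without NTG 2, and 123 and 67 without NTG 3. Among ataxin-2 and its partners, 2 of 18 genes tested fell, Atxn2 and Pabpc1, and none rose, with a median of -0.04. Without NTG 1, 5 of the 18 fell, and without NTG 2 none did. Pabpc1, the poly(A)-binding protein that ataxin-2 binds, was 1475, 1587 and 1500 CPM in NTG and 1364, 1433 and 1396 CPM in mATXN2 (-0.12, SE 0.0244, adjusted p = 0.0104), and lost its call without NTG 2 (adjusted p = 0.145). The paralog Atxn2l was 261, 252 and 258 CPM against 270, 262 and 271 CPM, a log2 fold change of 0.06 with an adjusted p of 0.325. Among the 6 polyglutamine disease genes tested 1 rose, Htt, which encodes huntingtin. It was 72.6, 79.9 and 96.4 CPM against 101, 102 and 103 CPM (0.29, SE 0.0654, adjusted p = 0.0217), with controls far more scattered than the mATXN2 samples, and it was called in 1 of the 6 fits.

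Methyltransferases of histone H3 lysine 4, which mark promoters and enhancers, had 3 of 6 genes that rose: Kmt2d, Kmt2b and Kmt2a. Their median log2 fold change was 0.20, and all 6 had values above 0. The study took this family up for the other effectors of the series, not for DiCas7-11, and its choice is not independent of these data. Kmt2d was 109, 111 and 135 CPM in NTG and 168, 150 and 151 CPM in mATXN2 (0.40, SE 0.0766, adjusted p = 0.00631). Kmt2a was 90.7, 89.7 and 108 CPM against 123, 118 and 107 CPM (0.27, SE 0.0591, adjusted p = 0.0197), where mATXN2 replicate 3 lay within the control range. Kmt2c, at 0.08, did not pass (adjusted p = 0.487), and its value was -0.08 once coding length was taken out. Without NTG 2, 1 of the 6 was called, Kmt2b. The family's median coding length was 10030.5 bases, and with GC and length taken out its median was 0.09 with none called. Among 12 subunits shared by these methyltransferase complexes Hcfc1 alone rose, also with each library left out, and the median was 0.03. Of 22 ATP-dependent chromatin remodelers, which slide or exchange nucleosomes, 3 rose: Ep400 at 0.24, Srcap at 0.24 and Arid1a at 0.18. Their median was 0.06. Without NTG 2 only 1 rose and without NTG 3 there were 6, and with GC and length taken out 1 was called and the median was 0.005. Arid1a kept its call in 2 of the 6 fits. Chd7 and Chd8 gave 0.15 and 0.11 and did not pass.

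Other families of very large proteins also had rises and no falls, beside the 13.8% of all genes over 6000 coding bases that rose. Of 18 giant ubiquitin ligases 6 rose and none fell, with a median of 0.07. Ubr4, an N-recognin that marks proteins for degradation, was 218, 216 and 283 CPM against 327, 299 and 302 CPM (0.37, SE 0.0693, adjusted p = 0.00557). Rnf213 rose by 0.34, Herc2 by 0.30 and Hectd4 by 0.29. None of the 18 was called without NTG 2, and with GC and length taken out 2 were called and the median was 0.03. Of 25 spectrins, plakins, dynein and other giant cytoskeletal genes 9 rose and none fell, with a median of 0.15. Among the 9 were Dync1h1, Syne2, Ahnak (0.36) and Map1a, and without NTG 2 there were 2 rises, Dync1h1 and Map1a. Without NTG 3 there were 16, and with GC and length taken out 2 were called and the median was 0.04. Giant cadherins and LDL receptor-related proteins had 4 rises among 14, Lrp1, Fat1 (0.35), Dchs1 (0.28) and Celsr3 (0.27), a median of 0.14, and none without NTG 2, and with GC and length taken out 1 was called. In a list of 6 genes, made up of PI3K-related kinases and Trrap, Trrap and the kinase Mtor (0.19) rose and the median was 0.15. There were 1 to 3 rises when a library was left out, and the median was 0.04 with GC and length taken out. Of 14 extracellular matrix genes, Hspg2 and Fn1 rose and Sparcl1 and Col4a1 fell, with a median of 0.06. Both rises were called without NTG 2 and neither fall was. Col4a1, a chain of basement membrane collagen, was 229, 225 and 229 CPM against 207, 208 and 212 CPM (-0.12, SE 0.0287, adjusted p = 0.0274), kept its call in 1 of the 6 fits, and untransfected cells held 281 ± 4.43 CPM.

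Falls among RNA-binding and translation genes were small. Of 36 SR proteins and hnRNPs, which package and splice pre-mRNA, 3 fell and none rose: Hnrnpa3 (-0.14), Hnrnpm (-0.13) and Hnrnpa1 (-0.13). The median of the family was -0.06, and 13 of its members had all mATXN2 samples below all NTG samples while none had them above, beside 7.22% and 7.25% of all genes. The family's median GC was 44.9%, and with GC and length taken out its median was -0.02 with 3 called. Hnrnpa1 was 2479, 2723 and 2592 CPM in NTG and 2369, 2392 and 2372 CPM in mATXN2 (SE 0.0244, adjusted p = 0.00658). Its mATXN2 samples were tight and NTG 2 was the highest control. Without NTG 1, 13 of the 36 were called as falls, beside 405 of all 13901 genes. Without NTG 2 none was, beside 2 of all 13901. Of 83 cytosolic ribosomal protein genes Rpl35a (0.20) and Rps19 (0.16) rose and Rps3a1 (-0.11) fell, with a median of 0.01. Without NTG 1, 11 rose and 3 fell, beside 216 and 405 of all 13901 genes, and without NTG 2 none was called. Ribosomal protein genes and Hnrnpa1 have near-identical pseudogenes, and their counts are uncertain for that reason. No gene was called in the lists of mRNA decay (28 tested), the ATP synthase (17) and small subunits of the respiratory chain (42). The medians of these lists lay between -0.01 and 0.04. Cyc1, cytochrome c1 of the respiratory chain, was outside that list. It rose by 0.15 (SE 0.0343, adjusted p = 0.0217) and kept its call in 2 of the 6 fits. Without NTG 1, 2 genes of mRNA decay fell, 1 of the ATP synthase rose, and 2 of the listed respiratory chain subunits rose and 2 fell.

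Metabolic and stress lists gave few calls. Fasn, fatty acid synthase, was the only call among 14 genes of fatty acid synthesis. It was 695, 635 and 705 CPM in NTG and 782, 777 and 788 CPM in mATXN2 (0.21, SE 0.0353, adjusted p = 0.00286), kept its call in 5 fits and had an adjusted p of 0.0525 without NTG 2. No cytosolic chaperone (20 tested) and no gene of the ER chaperones and unfolded protein response (18) was called, with medians of -0.05 and -0.04. Without NTG 1, however, 8 of the 20 and 4 of the 18 fell, beside 405 of all 13901 genes, and the list medians were -0.07 and -0.07. Asns was the only call among 14 genes of the integrated stress response. Interferon-stimulated genes had none called among 25 and a median of 0.10. Their summed level was 378 to 403 CPM in NTG and 394 to 403 CPM in mATXN2, against 242 to 257 CPM in untransfected cells, so both transfected arms lay above untransfected cells and overlapped each other. Isg15, a ubiquitin-like interferon product, was 11.7, 9.17 and 9.08 CPM in NTG and 10.6, 11.3 and 11.5 CPM in mATXN2, where untransfected cells held 0.789 ± 0.162 CPM. In the lists of p53 targets (13 tested), DNA repair (46) and mitosis (26) no gene was called. The mitotic kinesin Kif20b, a called fall, was not in the mitosis list. Without NTG 1, 7 genes of the DNA repair list and 5 of the mitosis list fell, beside 405 of all 13901 genes. Fen1, the flap endonuclease, was the only one of 40 DNA replication genes called (0.17, adjusted p = 0.0406), and none was without NTG 2. None of 15 immediate early genes was called. None of 8 nuclear-retained and non-polyadenylated RNAs was called either, but their median was 0.30 (0.19 to 0.34 with a library left out). Of the 8, 6 were higher in mATXN2, beside 49.5% of all genes. For 3 of them every mATXN2 sample was above every NTG sample, beside 7.25% of all genes. Relative to the NTG mean their median log2 level was -0.02, -0.12 and 0.06 in NTG and 0.44, 0.19 and 0.05 in mATXN2, highest in mATXN2 replicate 1, and the part of this in the other results was not tested. Of the 22 neuronal markers Elavl4, a neuronal RNA-binding protein, fell by 0.13 (adjusted p = 0.0336), while 6 fell without NTG 1 and none without NTG 2, and no glial, immune, endothelial, fibroblast or epithelial marker was called among the 9 tested.

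The called genes were set beside their values in the other effectors, each against its own controls. Of the 77 rises, 74 were higher with mATXN2 with RfxCas13d, where 50.5% of all genes were higher, and 73 with HiFi-RfxCas13d, where 49.3% were. Their medians there were 0.22 and 0.18 on the log2 scale. Of them 42 also rose with RfxCas13d, where 1.39% of all genes were called, 28 with HiFi-RfxCas13d, where 0.295% were, and 27 with both. Of the 54 falls, 48 and 42 were lower with RfxCas13d and HiFi-RfxCas13d, with medians of -0.06 and -0.03, and 2 and 1 of them were called. In all, 44 calls were shared with RfxCas13d, 33.6% of those of DiCas7-11 and 22.8% of the 193 of RfxCas13d, and 29 with HiFi-RfxCas13d, 22.1% and 70.7% of the 41 there. Genes of 9000 coding bases and longer stood at -0.16 to -0.08 in the NTG libraries of those effectors and at 0.02 to 0.07 in their mATXN2 libraries, on the scale used above, and at 0.22 to 0.28 in ASO libraries.

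**Figure D5:**
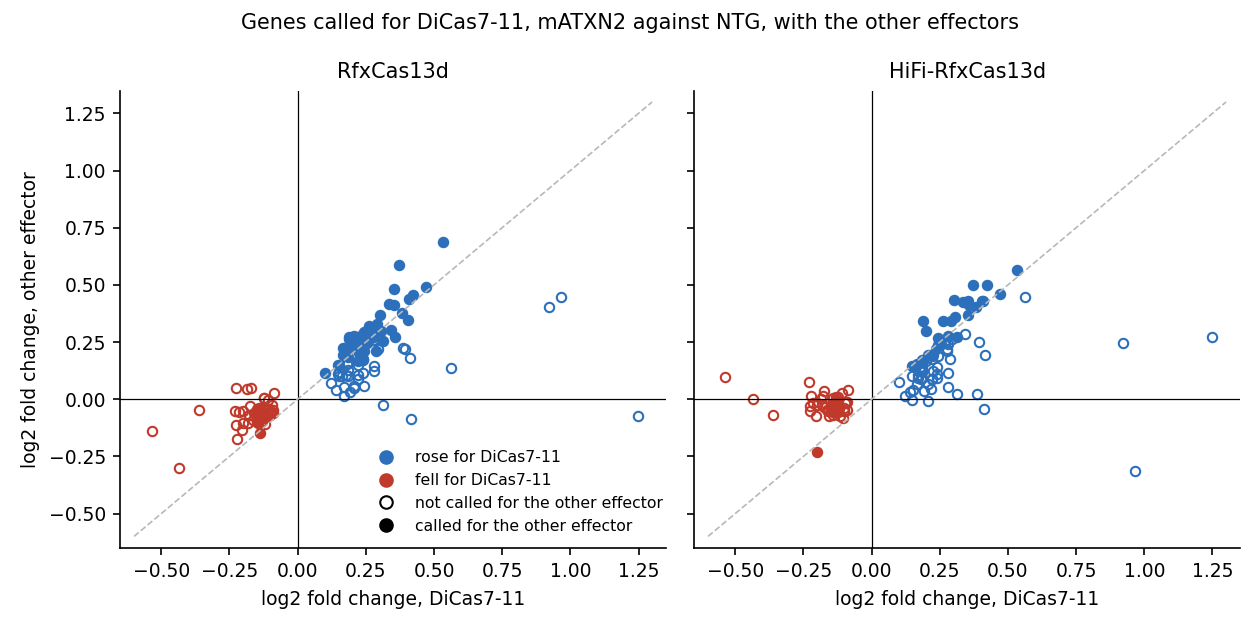
Log2 fold change of mATXN2 over NTG for the called genes of DiCas7-11 (horizontal axis) against that of the same genes with RfxCas13d and with HiFi-RfxCas13d (vertical axes). Points are genes, rises and falls in different colours, filled where the gene was also called for the other effector: 74 and 73 of the 77 rises lie above zero on the vertical axis, and 48 and 42 of the 54 falls below it.

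The responses themselves were then compared as a difference of differences. No gene passed for DiCas7-11 minus RfxCas13d (0% of 13901, lowest adjusted p = 0.320, 1084 with an unadjusted p below 0.05) or for DiCas7-11 minus HiFi-RfxCas13d (0%, lowest adjusted p = 0.0911, for Idi1-ps1, 1028 with an unadjusted p below 0.05). DESeq2, run on 24662 genes without the filter on low counts, called 4 genes in the former, Gm15093, Gm2007, LOC118568306 and Asns. In the latter it called 3, Idi1-ps1, Gm2007 and Asns. These genes were named after these results were seen. The log2 differences of Gm15093 (-41.8) and Gm2007 (23.4 and 22.3) are too large to be read as sizes of change. Those of Asns were -0.11 and -0.13, that of LOC118568306 was -0.30 and that of Idi1-ps1 -0.63. The Atxn2 fold change was -0.10 with RfxCas13d and -0.23 with HiFi-RfxCas13d. Its fall with DiCas7-11 differed from the former by -0.10 (95% interval -0.21 to 0.01, adjusted p = 0.693) and from the latter by 0.03 (95% interval -0.08 to 0.14, adjusted p = 0.942), so the effectors were not distinguished at this precision, and differences of these sizes were not excluded. Among the calls of DiCas7-11, 36 and 57 had an unadjusted p below 0.05 in the comparisons. Idi1-ps1 stood at -0.14 with RfxCas13d and 0.10 with HiFi-RfxCas13d, and Asns at 0.03 and 0.04. Hspg2, in contrast, was 0.69 and 0.57 there, beside 0.53 with DiCas7-11.

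Untransfected cells did not stand consistently with either arm. For the 77 rises their mean lay beyond the NTG mean in 32 genes, between the arms in 40 and beyond the mATXN2 mean in 5. Hspg2 at 86.6 ± 11.9 CPM and Fn1 at 617 ± 26.5 CPM lay between the arms and nearer to mATXN2. Trrap at 176 ± 13.5 CPM lay beside NTG, as did Kmt2b at 58.6 ± 4.71 CPM, which was below the NTG mean, and Fasn at 579 ± 36.5 CPM was lower than both arms. For the 54 falls the untransfected mean lay beyond the NTG mean in 30 genes, between the arms in 19 and beyond the mATXN2 mean in 5. The NTG arms of RfxCas13d and HiFi-RfxCas13d were on the DiCas7-11 NTG side of the midpoint for most rises, with 3 and 4 of 77 on the mATXN2 side, and for most falls, with 8 and 6 of 54 on the mATXN2 side.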

How the data were processed

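RNA-seq was made from Neuro2A cultures with a stranded mRNA kit and single-end sequencing. According to the methods and the submitters' processing notes, the authors quantified reads with Salmon 1.5.2 (decoy-aware, with corrections for sequence and GC bias) against NCBI transcripts of the GRCm39 mouse genome and summed them to genes in R 4.2.2 with length-scaled estimates that keep multi-mapped reads. The deposited values are expected counts for 39253 genes, not normalized. The deposited table also marks 12874 genes the authors kept. Columns of the authors' own comparisons hold fold changes and p-values and were not used.

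Expected counts were rounded to whole numbers. The 13901 genes that reached 0.5 CPM in 3 or more samples were fitted with edgeR 4.0.16 in R 4.3.3 by the quasi-likelihood test, with TMM scaling, all 24 samples in 8 groups and no block. Benjamini-Hochberg adjustment ran over all genes within a comparison. SE is the fold change over the square root of F. The same fit gave the differences between effectors. The authors used limma-trend, which is among the alternatives (DESeq2 1.42.0, limma 3.58.1, other filters and scalings, subsets of samples, a replicate block, corrections for coding length and GC, each DiCas7-11 library left out). The fits were tested on simulated data. Coding length and GC come from an annotation of another build, GRCm38, and are used with no coordinates.

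Genes named in the text were Atxn2, the 12 largest rises and 12 largest falls among called genes averaging 50 counts or more whose arms did not overlap, those called in all 6 fits leaving out a library, and of each gene list the first 4 members with a value and up to 4 called members. Others are given for context, and some genes that met the rule are not reported here. The members and lists were chosen with earlier results of these data known. Mitochondrially encoded genes (13 listed) had no row in the table. The study states that in vitro replicates were independent biological samples, while the labels give only replicate numbers. No crRNA sequence is given in the sources used here.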

Additional observations from a re-analysis of the deposited data

How the results depend on the processing

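The count of 131 genes was within 1.5 times of itself with RLE size factors, with a filter of 2 CPM, with voom weights, in the 18 samples with an effector and with the length correction, whose calls split into 52 rises and 97 falls in place of 77 and 54. Falls also outnumbered rises with voom weights (55 rises and 64 falls). The count was 366 with no filter on low counts (203 and 163), 288 with DESeq2 (109 and 179), 636 with limma-trend (312 and 324) and 643 with edgeR (305 and 338) when adjusted over 10 comparisons, 1 (Idi1-ps1) when the 6 samples were fitted alone (1322 with an unadjusted p below 0.05), 60 with GC and length taken out (28 and 32), and 15 to 621 with 1 library left out. GC corrections were added after seeing the data. Same-numbered samples of the arms did not deviate together in every case (r across genes 0.03, 0.12 and -0.04), and not every sample correlated best with its own number, so the numbers were not taken as pairs. The replicate block gave 251 calls (110 and 141), with the length correction 325. For DiCas7-11 minus RfxCas13d the count of 0 became 72 with no filter, 4 with DESeq2, 4 with the replicate block (LOC118568306, Cd24a, Enc1 and Slc38a2), 7 with the block and length correction, 7 with the block, GC and length, and 0 to 2 with 1 library left out. For DiCas7-11 minus HiFi-RfxCas13d it became 80 with no filter, 3 with DESeq2, 1 in the 18 samples, 1 in the samples compared (Idi1-ps1 in both), and 0 to 6 with 1 library left out. Atxn2 lost its call only in the 6 samples alone (-0.20) and in 2 of the fits leaving out a library (-0.22 to -0.19 over all 6). Kmt2c changed sign from 0.08 to -0.0827 with the length correction (-0.0819 with the block) and to -0.0682 with GC and length (-0.0678 with the block). None of the 62 called genes that the naming rule gave besides Atxn2 changed sign in those of the 20 alternatives where it had a value. In the corrections for coding length and GC, 60 of the 62 had a value. Of 616 recomputed list medians, 61 moved by 1 SD or more. Of the 131 calls, 129 had a mean of 50 counts or more.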
